A study of Caenorhabditis elegans with 4 samples.

Results

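The X chromosome of Caenorhabditis elegans carried 2656 of the 14199 HDA-1 peaks in the whole-series list (18.7%), 2287 of the 11762 peaks of replicate 1 (19.4%) and 1583 of the 9901 peaks of replicate 2 (16.0%). These are the peaks whose chromosome field reads X in the deposited lists, so their number, place, width and score are described here and not used to choose them. They are set against chromosomes II to V, which held 9079, 7447 and 6602 peaks in the same lists. HDA-1 was mapped by chromatin immunoprecipitation and sequencing (ChIP-seq) in wild-type worms of the standard laboratory strain N2, collected as L3 larvae at 20 °C. There were 2 libraries precipitated with SDQ2354, a polyclonal rabbit antibody against HDA-1 that had been affinity purified, and 2 libraries of input DNA, which were not analysed here. All libraries came from whole larvae, so the peaks mix the chromatin of every tissue. The population was labelled as both males and hermaphrodites, in a proportion not given in the sources used here. How far the number of X chromosomes varied among the animals is thus unknown. The worms were grown in liquid culture, and the labels do not say whether the replicates came from separate cultures.

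HDA-1 belongs to the class I histone deacetylases, which remove acetyl groups from histone tails, mostly as part of corepressor complexes that include NuRD and SIN3. In worms it is needed for embryonic development and for vulval and gonadal cell fates. X is the sex chromosome. Hermaphrodites carry a pair of X chromosomes and males a single one, and in hermaphrodites a condensin-containing dosage compensation complex binds both X chromosomes in somatic cells and lowers their transcription. X also differs from the autosomes in the germ line, where it is largely silent, and in its layout, since the gene-rich centre and repeat-rich arms of the autosomes are less distinct on it.

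The values are positions on the WS220 build with the authors' own score for each peak. The quantity behind this score is not stated, and it is used to rank peaks within a list. The lists hold no read counts, and the depth behind a peak is unknown. With 2 ChIP libraries and no list from the inputs, a test across samples can hardly be made: an exact one on the 2 within-library values cannot give a p under 0.5. Values of X are therefore given beside those of each of II to V, with exact 95% intervals that cover counting error and treat peaks as independent. The whole-series list is not independent of the replicate lists.

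Peak density on X differed between the replicates more than on any of II to V. X had 129 peaks per Mb in replicate 1 (interval 124 to 135), 89.4 in replicate 2 (85.0 to 93.9) and 150 in the whole-series list (144 to 156). Replicate 1 thus had 1.45 times as many X peaks as replicate 2, while on II to V the same ratio lay between 1.11 and 1.15. In replicate 1 the density of X was close to that of II (129 per Mb) and lay under that of III (138), with IV (102) and V (85.6) lower. In replicate 2 it lay next to IV (88.8), below III (124) and II (114) and above V (76.5).

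Set against II to V together, X was denser in replicate 1 and sparser in replicate 2. Replicate 1 showed 129 peaks per Mb on X and 110 on II to V, which gives a ratio of 1.17 (interval 1.12 to 1.23, exact two-sided binomial test, p = 2.91e-10 adjusted over 3 lists). Replicate 2 showed 89.4 on X and 97.8 on II to V, and thus a ratio of 0.91 (0.86 to 0.96, adjusted p = 0.00113 by the same exact test). For the whole-series list the densities were 150 on X and 135 per Mb on II to V, at a ratio of 1.11 (1.07 to 1.16, adjusted exact p = 1.78e-06). Over the replicates as a pair, the log2 ratio of X to II to V averaged 0.048 ± 0.25 (SD, n = 2), with opposite signs in the replicates. X was thus not shown to differ from II to V beyond the spread of the libraries. An exact sign-change permutation test (two-sided, p = 1) could not decide this, because 2 values cannot give a p under 0.5. In the whole-series list X lay below III (168.5 per Mb) and II (156) and above IV (122.6) and V (106.5). The excess of X there depended most on chromosome V: without V, the log2 ratio was 0.027 (exact p = 0.415) in place of 0.16. Without IV the log2 ratio was 0.11, and without II or III it was 0.23 or 0.25. Among the better-scoring 50% of peaks it was 0.0052 (exact p = 0.910). The binomial tests count each peak as a separate event although peaks often lie in groups, and they say nothing of the spread between cultures.

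**Figure D1:**
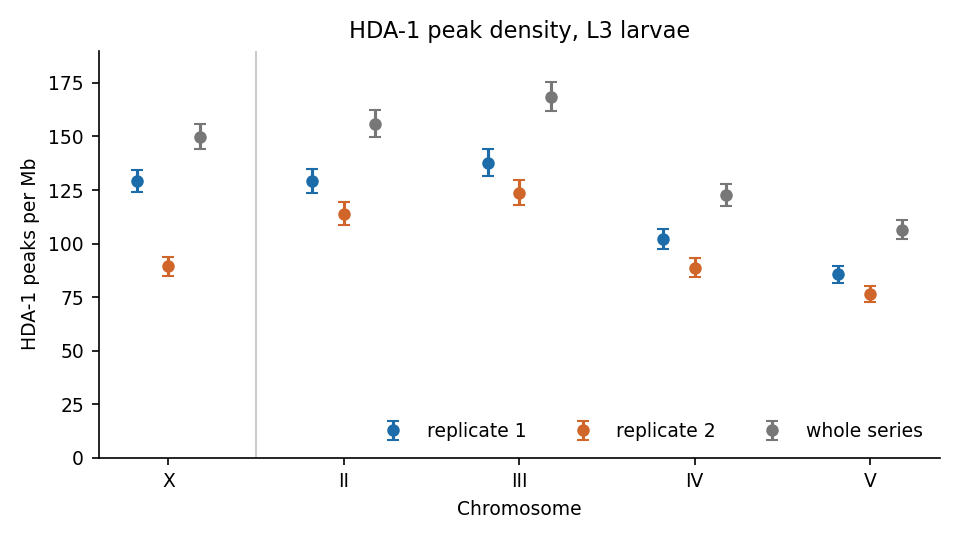
HDA-1 peaks per Mb (vertical axis) on X and on chromosomes II to V in replicate 1, replicate 2 and the whole-series list. Points are densities and bars are exact 95% counting intervals. On X replicate 1 lies at 129 and replicate 2 at 89.4 peaks per Mb, the widest separation of the replicates on these 5 chromosomes.

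X peaks scored low within each list and were less often wide. The median X score was 7.75 in replicate 1, against 8.47 to 9.44 on each of II to V. It was 8.50 in replicate 2, against 8.63 to 9.06, and 8.35 in the whole-series list, against 8.71 to 9.67. X thus lay below each of II to V in all 3 lists. Of the X peaks, 27.1% in replicate 1 and 27.7% in replicate 2 fell in the lowest-scoring 25% of their list, counted over X and II to V, against at most 25.9% and 25.5% on any one of II to V. At the top of the lists the replicates differed. The strongest 10% took in 8.66% of the X peaks in replicate 1, below the 9.71% to 11% of II to V, but 10.8% in replicate 2, above the 8.81% to 10.4% of II to V.

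Wide X peaks were few. Replicate 1 peaks on X had a median width of 256 bp, against 253 to 261 bp on II to V. Replicate 2 peaks had 214 bp, against 215 to 231 bp, and whole-series peaks 242 bp, against 246 to 259 bp. Medians of X and of II to V were thus close. The widest 10% of X peaks began at a smaller width, 556 bp in replicate 1, against 576 bp or more on each of II to V. They began at 426 bp in replicate 2, against 470 bp or more, and at 548 bp among whole-series peaks, against 601 bp or more. Further up, X was not always lowest. In replicate 1 its 99th percentile (1206 bp) lay above IV (1140 bp) and V (1127 bp) and below II (1326 bp) and III (1336 bp). In the other lists X had the lowest 99th percentile. The widest single peak of X exceeded those of III and IV in each list, that of II in replicate 1 only, and that of V in none. Peaks of 800 bp or more made up 2.94% of the whole-series peaks on X (78 peaks, interval 2.33% to 3.65%), against 4.05% to 4.83% on each of II to V. In the replicates the shares on X were 3.41% (2.71% to 4.24%) and 1.14% (0.68% to 1.79%), against lowest values of 3.81% and 1.32% on II to V. These intervals take in the lowest value of II to V in each replicate, so within a replicate the difference was not beyond counting error.

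**Figure D2:**
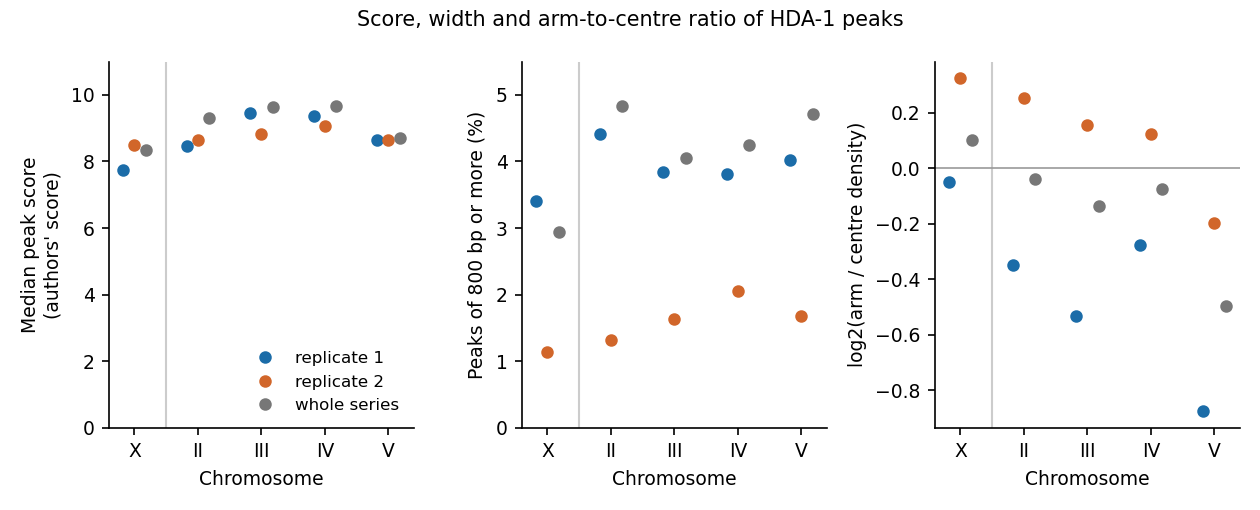
Median peak score, percentage of peaks of 800 bp or more, and log2 ratio of arm to centre density, by chromosome, in replicate 1, replicate 2 and the whole-series list (points). X has the lowest median score and the smallest share of wide peaks, and the highest arm-to-centre ratio, in each list.

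Of the whole-series X peaks, 1011 overlapped a peak of both replicates by at least 1 bp. That is 38.1% (interval 36.2% to 39.9%), against 42.9% of the II to V peaks together and 39.9% on V, the lowest of them. The other X peaks were found in replicate 1 only (918 peaks, 34.6%), in replicate 2 only (400 peaks, 15.1%) or in neither (327 peaks, 12.3%). On II to V the share found in replicate 1 only was 26.0% to 29.1% and the share found in replicate 2 only was 18.6% to 19.2%. The share found in neither was 9.93% to 12.3% there. X thus held more sites found in replicate 1 only, and fewer found in replicate 2 only, than each of II to V. Sites found in both were the strongest and widest, at medians of 18.9 in score and 375 bp in width. Medians were 6.63 and 209 bp for sites found in replicate 1 only, 6.39 and 198 bp for those found in replicate 2 only, and 4.65 and 165 bp for those found in neither. At like score, X lay close to II to V. From the lowest-scoring to the best-scoring 25% of the whole-series list, 4.46%, 17.3%, 49.4% and 92.2% of X peaks were found in both. On II to V the shares were 4.04%, 18.8%, 51.8% and 93.7%, with overlapping intervals at each level. The lowest-scoring 25% took in 28.7% of the X peaks, against 24.0% on II to V.

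Recurrence on X lay below II to V in one direction and above it in the other. Of the X peaks of replicate 1, 44.3% (1012 peaks, interval 42.2% to 46.3%) were found in replicate 2, against 53.4% on II to V together and 50.8% to 55.5% on each. Of the X peaks of replicate 2, 68.4% (1083 peaks, 66.1% to 70.7%) were found in replicate 1, against 64.4% on II to V together and 61.2% to 67.1% on each. Once the same number of best-scoring peaks was taken from each replicate, 1583 on X, the shares on X were 54.4% and 59.1%. The same choice gave 54.2% and 58.7% on V and up to 59.2% and 62.9% on the others, so X then lay within the range of II to V.

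In the full lists, not brought to equal numbers, the difference was spread over the score range. The score bands below do not adjust for the larger ratio of replicate 1 to replicate 2 peaks on X. Among the lowest-scoring 25% of replicate 1, replicate 2 also held 21.2% of the X peaks (interval 18% to 24.6%) and 28.6% of those on II to V (26.5% to 30.7%). In the next 25% the shares were 31.0% on X and 37.0% on II to V, and in the one above it 46.7% (42.4% to 51.1%) and 56.5% (54.3% to 58.8%). In the best-scoring 25% they were 86.1% (82.8% to 89.0%) and 88.9% (87.4% to 90.2%), with intervals that overlap. For replicate 2 the X share was the higher one at each level, and the intervals did not overlap in the band of scores from 8.65 to 14.6, with 76.9% on X and 66.3% on II to V. Wider sites were more often found in both. Under 200 bp, 4.64% of the whole-series X peaks were found in both replicates (6.15% on II to V). From 200 bp to under 400 bp the shares were 42.6% on X (interval 39.8% to 45.5%) and 46.5% on II to V (44.9% to 48.0%), and from 400 bp to under 800 bp they were 81.7% on X and 82.6% on II to V. At 800 bp or more, 76 of 78 were (97.4%, against 96.3% on II to V).

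**Figure D3:**
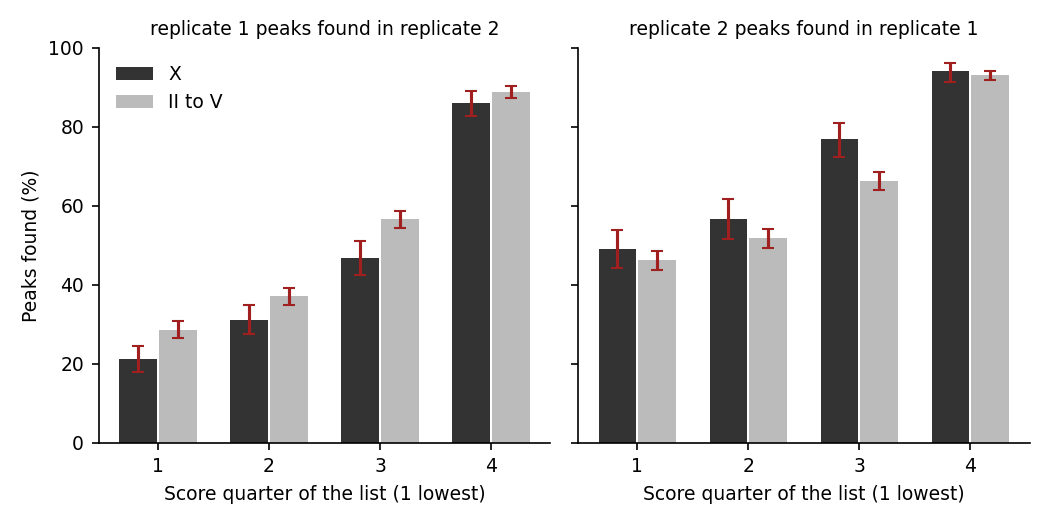
Percentage of peaks of one replicate that overlap a peak of the other by at least 1 bp (vertical axis), by score from the lowest-scoring 25% to the best-scoring 25% of the list, for X (dark bars) and II to V (light bars). Error bars are exact 95% binomial intervals. In these full lists, not brought to equal numbers, X lies lower for replicate 1 peaks and higher for replicate 2 peaks.

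Matching X peaks of the replicates, each the other's largest overlap, numbered 999. Their midpoints lay a median of 43.5 bp apart (90% within 164 bp), against medians of 43 to 47.5 bp on II to V. The pairs were chosen by overlap, which caps the distance, at a median of 303 bp over the X pairs. The replicate 1 peak was the wider one in 776 pairs (77.7%, interval 75% to 80.2%), with median widths of 347 bp in replicate 1 and 243 bp in replicate 2. In the full lists replicate 1 also had the larger median width on each of II to V, so wider replicate 1 peaks were not particular to X. Over all peaks of II to V the median was 257 bp in replicate 1 and 220 bp in replicate 2. Scores of the pairs followed each other in part, with a Spearman rho of 0.52 across the 999 sites of the same 2 libraries. Of the 50 best-scoring X peaks, 49 of replicate 1 were found somewhere in replicate 2 and all 50 of replicate 2 in replicate 1, but 19 of the 50 in replicate 1 overlapped one of the 50 best in replicate 2. The pair widths, the score correlation and these counts are not given for II to V, so they do not set X apart. Most shared sites were single peaks: 913 of the 1011 (90.3%) overlapped exactly 1 peak in each replicate, against 84.8% to 88.3% on II to V.

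The 10 best-scoring X sites found in both replicates were spread along the chromosome, with 3 in the left 25% of its length, 4 in the right 25% and 3 between. Their whole-series scores ran from 67.9 to 78.1 and their widths from 299 to 914 bp, with a median of 464 bp. Among X peaks alone they ranked from 1 to 44 in replicate 1 and from 1 to 306 in replicate 2, and 7 of them were among the 50 best in each. The site from 16024450 to 16025005 had a score of 107 in replicate 1 (rank 2) and 77.3 in replicate 2 (rank 5). The site from 15840946 to 15841418 had 106 (rank 5) and 79.4 (rank 2). These were the 2 that ranked among the first 5 in both replicates. The site from 4523414 to 4524327, the widest of the 10 at 914 bp, was the best-scoring X peak of replicate 2 (90.2) and ranked 35 in replicate 1 (66.7).

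The other leading sites differed more in rank. The peak from 59131 to 59429, near the left end of the chromosome, was the best-scoring X peak of replicate 1 at 116 and ranked 306 in replicate 2 at 18.2. The top whole-series site, from 12017933 to 12018583 (score 78.1), was called as 2 peaks in replicate 1, the better with a score of 107 (rank 4), and as 1 peak in replicate 2 with 47.1 (rank 54). The remaining 5 were X from 1302250 to 1302654, 3945683 to 3946137, 9113794 to 9114118, 14127263 to 14127679 and 14753314 to 14753800. Their ranks ran from 3 to 44 in replicate 1 and from 12 to 52 in replicate 2. Which genes lie there was not analysed here, because the gene annotation used a different build.

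The 5 best-scoring X peaks of each replicate without any overlap in the other lay between 45 bp and 18927 bp from its nearest peak. The best in replicate 1, from 6378197 to 6378707 (score 64.1, rank 43), lay 82 bp from a replicate 2 peak, and the next, from 10900066 to 10900562 (score 55.7), lay 45 bp from one. The third, from 535809 to 536095 (score 53.1, rank 85), was 18927 bp from the nearest replicate 2 peak. The other 2 lay 6342 and 7310 bp away. In replicate 2 the best unmatched peak, from 6331754 to 6332535 (score 45.0, rank 59), lay 1843 bp from a replicate 1 peak, and the next 4 lay 302 to 7426 bp from one. The 5 best unmatched peaks of each replicate were all in the whole-series list.

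Along X, in bins of 1 Mb, the whole-series list held between 94 and 193 peaks per full bin, with a median of 153 over 17 bins. Replicate 1 held 88 to 169 and replicate 2 held 57 to 131. The densest bin was X from 16000001 to 17000000 with 193 whole-series peaks, 152 of replicate 1 and 125 of replicate 2. Next to it, 15000001 to 16000000 held 178 (136 and 131), and 4000001 to 5000000 held 175 (169 and 111). The sparsest was 9000001 to 10000000 with 94 (97 and 57). It was followed by the leftmost bin, 1 to 1000000, with 111 (88 and 85), and by 10000001 to 11000000 with 127 (111 and 67). Bins 10 and 11 counted from the left end were thus low in both replicates, while the leftmost bin was the lowest of all in replicate 1 and near the median of 86 in replicate 2.

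Bin counts varied less on X than on most of II to V. The SD over full bins was 17.2% of the mean in replicate 1, below the 26.3% to 39.9% of II to V. It was 22.1% in replicate 2, within their range of 16.3% to 32.4%, and 16.7% in the whole-series list, within their range of 16.2% to 28.7%. Chromosome III was more even than X in both of those lists. Peak counts of the replicates followed each other over the 17 bins of X at Spearman rho 0.55 and Pearson r 0.52, as a description over neighbouring bins of the same pair of libraries.

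**Figure D4:**
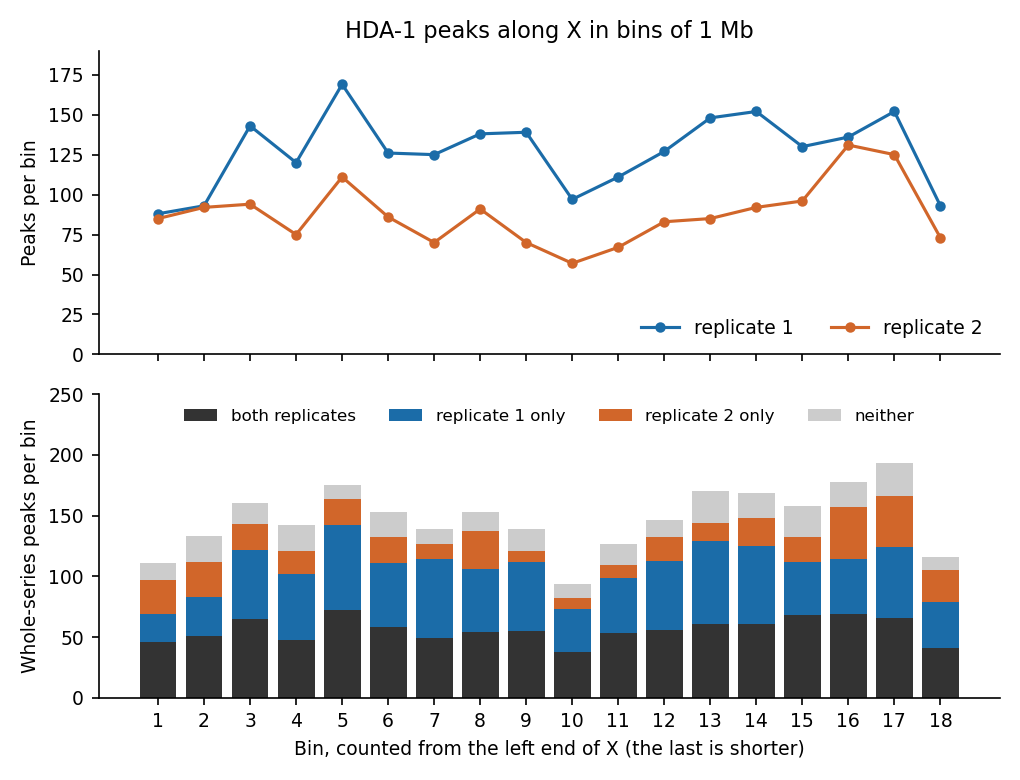
HDA-1 peaks in bins of 1 Mb along X, counted from the left end. The upper panel gives the peaks per bin in replicate 1 and replicate 2 (lines), and the lower panel the whole-series peaks per bin split by the replicate lists they overlap (stacked bars). Replicate 1 exceeds replicate 2 in each bin, by the smallest ratio in bins 1, 2 and 16, and sites found in replicate 2 only are most frequent in bins 16 and 17.

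The excess of replicate 1 over replicate 2 was small at the ends of X and large in its middle. A contrast in the same direction was seen on each of II to V, in the arm and centre densities given below, so it was not particular to X. The ratio of replicate 1 to replicate 2 peaks was 1.03 and 1.01 in the 2 leftmost bins and 1.04 and 1.22 in bins 16 and 17. It was highest, at 1.99, in the bin from 8000001 to 9000000. Sites found in both replicates varied least, from 38 to 72 per bin. Sites found in replicate 1 only ran from 23 in the leftmost bin to 70 in the fifth. Sites found in replicate 2 only ran from 9 in bins 9 and 10 to 43 in bin 16 and 42 in bin 17. Bin 8 held 31, of which 18 lay within one window of 20 kb described with the groups of close peaks. The peaks of each replicate that lacked a match were not correlated over the 17 bins (Spearman rho -0.015).

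Arms and centre of X, with 25% of the length as each arm and the middle 50% as the centre, differed in density by list. In replicate 1 the left arm had 113 peaks per Mb, the centre 131 and the right arm 140. In replicate 2 they had 87.6, 79.4 and 111. In the whole-series list they had 138, 145 and 173. The right arm of X was its densest part and exceeded the left arm in all 3 lists. The right arm was also the densest part of II in all 3, and of III in replicate 2 and the whole-series list. On IV and V it was the sparsest part in all 3. The log2 ratio of both arms to the centre of X was -0.049 in replicate 1 and 0.32 in replicate 2. On II to V it ran from -0.87 to -0.28 in replicate 1 and from -0.20 to 0.25 in replicate 2. On each of II to V, as on X, this ratio was lower in replicate 1 than in replicate 2. It was -0.35 in replicate 1 and 0.25 in replicate 2 on II, and -0.53 and 0.15 on III. On IV it was -0.28 and 0.12, and on V -0.87 and -0.20. In the whole-series list X had 0.10, against -0.50 to -0.038. X lay above each of II to V in all 3 lists, and its own sign differed between the replicates, as did the signs of II, III and IV.

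The same held for sites found in both replicates, which do not depend on the peaks called in one list alone. Of these, 51.6% lay in the arms of X (interval 48.5% to 54.8%), against 34.5% to 46.9% on each of II to V. Sites found in replicate 1 only lay in the arms in 46.2% of cases (42.9% to 49.5%) and sites found in replicate 2 only in 63.7% (58.8% to 68.5%). On II to V the shares were 33.1% to 40.6% for sites found in replicate 1 only and 63.3% to 71.2% for sites found in replicate 2 only.

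Spacing of X peaks was like that of II to V in replicate 1 and looser in replicate 2. In replicate 1 the median gap was 2656 bp, inside the 2302 to 3326 bp of II to V, and 33.9% of gaps were under 1 kb (interval 32.0% to 35.9%), inside their 31.2% to 35.4%. In replicate 2 the median gap was 4898 bp, above the 2949 to 4434 bp of II to V, and 23.8% of gaps were under 1 kb (21.7% to 25.9%), below their 26.8% to 32.5%. In the whole-series list the median gap was 2520 bp and 32.5% of gaps were under 1 kb, next to V with 32.7%.

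**Figure D5:**
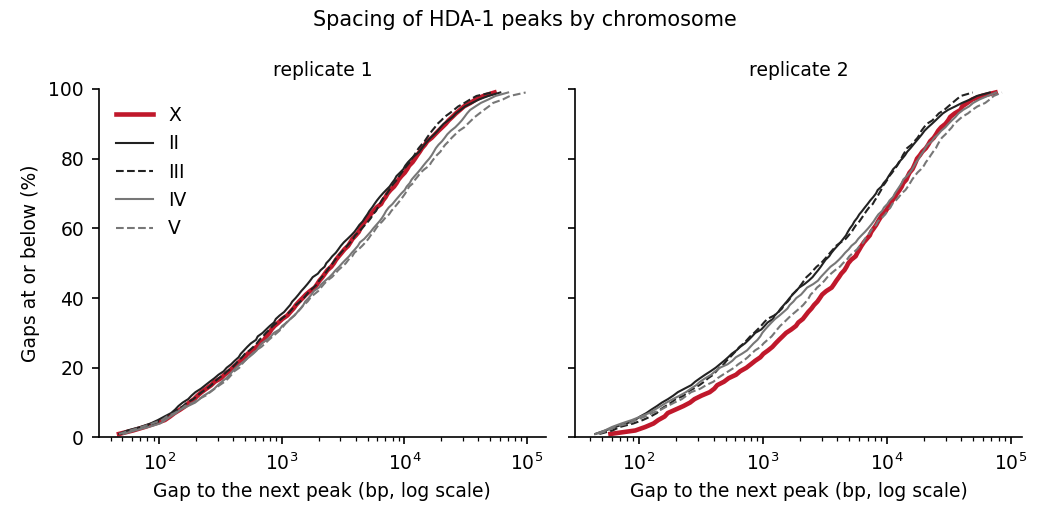
Percentage of gaps between neighbouring peaks at or below a given length (bp, log scale) in replicate 1 and replicate 2, for X (thick line) and chromosomes II to V. X runs among II to V in replicate 1, with a median of 2656 bp, and to their right in replicate 2, with a median of 4898 bp, for the shorter gaps.

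The longest single gap of X was short in the whole-series list and in replicate 1, but long gaps as a group were not scarce. The longest whole-series gap on X was 79068 bp, from 11114705 to 11193772, against 95822 to 184350 bp for the longest on each of II to V. It was followed by 14363041 to 14437815 (74775 bp) and 4062215 to 4136924 (74710 bp). None of the 3 was empty in the replicates, which had from 1 to 3 peaks in them with scores of at most 10.4. The longest gap was 104746 bp in replicate 1 (from 1682832 to 1787577) and 125438 bp in replicate 2 (from 7826062 to 7951499). On II to V the longest were 107747 to 303940 bp in replicate 1 and 123425 to 201441 bp in replicate 2, so X had the lowest value in replicate 1 but not in replicate 2. Gaps over 50 kb numbered 22 on X in the whole-series list, 29 in replicate 1 and 46 in replicate 2. Each lay within the range of II to V, at 11 to 70, 21 to 85 and 17 to 91. Whole-series gaps over 20 kb made up 38.6% of the length of X, also within the 33.5% to 60% of II to V.

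Close peaks on X formed 186 runs of 3 or more with every gap under 1 kb. They took in 775 peaks, 29.2% of the whole-series X peaks, against 28.9% to 34.6% on II to V. Of the runs 101 had 3 peaks and 43 had 5 or more, and their median length was 2174 bp. Replicate 1 alone gave 157 such runs with 29.6% of its X peaks, within the 27.4% to 30.8% of II to V, and replicate 2 alone gave 67 with 16.8%, below their 20.1% to 27.5%. Peaks in runs were found in both replicates in 45.4% of cases (interval 41.9% to 49.0%), against 35.0% (32.9% to 37.2%) of the X peaks outside them. They were also wider, with a median of 287 bp against 228 bp, and scored about as high, with a median of 8.71 against 8.35. Wider sites were more often found in both on X and on II to V alike, and the shares in and outside runs were not compared at equal width. The same shares are not given for II to V, so they do not set X apart.

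The largest run on X lay from 12171701 to 12184817, where 13117 bp held 18 whole-series peaks, 11 of them found in both replicates, with 16 peaks in each replicate list and a top score of 57.5. It lies in the fullest 20 kb window of the chromosome, with 22 whole-series peaks. Another run, from 8014538 to 8022916, had 12 peaks, 9 found in both, with 13 in replicate 1 and 10 in replicate 2. The runs from 2211702 to 2219734 (11 peaks) and 4139573 to 4147892 (10 peaks) had 5 and 6 found in both. The next fullest window, from 11461656 to 11481655, held 20 whole-series peaks with 22 in replicate 1 and 14 in replicate 2, and those from 3819716 to 3839715 and 7214901 to 7234900 held 18 (17 and 6) and 17 (19 and 9).

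One crowded stretch of X lacked replicate 1 peaks but was full in the other lists. The 20 kb window from 7344610 to 7364609 held 18 whole-series peaks and 16 replicate 2 peaks and no replicate 1 peak. Replicate 1 had no peak over 89257 bp around it, from 7341248 to 7430506, where replicate 2 had 17. Scores there were low, from 2.08 to 9.35 in the whole-series list and from 2.32 to 11.5 in replicate 2. It included the widest X peak of replicate 2, 2375 bp from 7356397 to 7358771 with a score of 6.75, which ranked 980 on X and overlapped 5 whole-series peaks. The run inside this window, from 7354386 to 7361315, had 12 peaks and was the largest on X, II, III, IV or V without a replicate 1 peak, those on II to V having at most 6. In all, 3 of the 186 runs of X had replicate 2 peaks but none of replicate 1, 14 had the reverse, and 168 had peaks of both. Runs with replicate 2 peaks only numbered 1 of 190 on II, 11 of 187 on III, 5 of 163 on IV and 6 of 149 on V. The reverse held for 9, 5, 8 and 8 runs on these chromosomes, and 180, 171, 150 and 135 had peaks of both.

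The 5 widest X sites were found in both replicates, 4 of them as 2 to 4 peaks in replicate 2 and 1 of them as 2 peaks in replicate 1. The widest whole-series peak, 2645 bp from 6739975 to 6742619, was 1 peak of 3699 bp in replicate 1 (score 66.7) and 3 peaks covering 1909 bp in replicate 2. The peak from 16929395 to 16931879 (2485 bp) was 1 peak of 3236 bp in replicate 1, and 4 peaks covering 2058 bp in replicate 2, one of which ranked 11 on X with a score of 69.2. The site from 3114855 to 3116617 was 2 peaks in replicate 1 and 3 in replicate 2, and that from 13143144 to 13144825 was 1 and 2. The site from 4144187 to 4145821 was 1 peak in each replicate, of 1671 and 1468 bp. Of the 1011 sites found in both replicates, 72 (7.12%) overlapped 2 or more replicate 2 peaks and 42 (4.15%) 2 or more replicate 1 peaks. On II to V these shares were 8.57% to 11.2% and 4.82% to 6.03%, so both shares were lower on X than on each of them.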

How the data were processed

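Peak lists of 2 HDA-1 ChIP libraries and of the whole series were used. Per the file headers, the peaks were called with MACS on WormBase WS220, and the submitters' processing notes name BWA and the ce10 build. For MACS the version, threshold and control, and for the whole-series list the way it was made, are details not given in the sources used. The deposited value of each peak is a score of the authors with no stated scale, from 1.30 upward in the replicate lists and from 1.31 in the whole-series list.

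Peaks on X were taken by chromosome name and compared with II to V. Peaks were matched by an overlap of at least 1 bp, bins of 1 Mb and arms of 25% took a peak by its midpoint, and chromosome length was the largest peak end over the lists (X, 17714570 bp). Density was compared by an exact two-sided binomial test against the share of the length, with Benjamini-Hochberg adjustment over 3 lists, and the ratios of the 2 replicates by an exact sign-change permutation test added after the data were seen. All other values are descriptions with exact Clopper-Pearson or Poisson intervals. Named regions followed a rule: the 10 best-scoring sites in both replicates, 5 fullest windows of 20 kb, 3 densest and 3 sparsest full bins, 3 longest gaps, 5 widest peaks, 5 largest runs and 5 best unmatched peaks of each replicate. The members and rules were chosen with earlier results of these data known, and the score bands, width classes, counts at equal number per chromosome and the details of the window with no replicate 1 peak were added afterwards. No genome of WS220 was used, so no sequence or gene is given. The code was checked on simulated lists. Computation ran in Python 3.11.15 with SciPy 1.17.1, pandas 2.3.3 and NumPy 2.4.6, and plots were drawn with matplotlib 3.10.9.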

Additional observations from a re-analysis of the deposited data

How the results depend on the processing

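Of 42 alternative values for X, 18 stayed on their side of the threshold or within the spread, 19 moved, 3 no longer passed and 2 reversed. For width, gaps, the share of gaps under 1 kb and the arm-to-centre ratio, the spread was the SD of the 2 single-replicate values. Those values were also scored against it, so their labels are no independent check. Against II to V, the log2 density ratio of X ranged from -0.13 (replicate 2 alone) to 0.25 (II to V without III), with 0.23 for replicate 1 alone and 0.16 as reported. It no longer passed in the better-scoring 50% (0.0052), without V (0.027), or with the ratios paired by replicate block (0.048, added after the data were seen), where 2 values cannot reach the threshold. Single replicates gave -0.049 to 0.32 for the log2 arm-to-centre ratio. Midpoints within 100 bp gave 28.5% of whole-series X peaks in both replicates, 33.9% of replicate 1 peaks in replicate 2 and 49.0% of replicate 2 peaks in replicate 1. An overlap of 50% of the shorter peak gave 65.5% for the last of these. Equal numbers gave 54.4% and 59.1%. The better-scoring 50% gave 42.0% in both, 49.1% of replicate 1 peaks in replicate 2, median values of 339 bp for width and 6678 bp for gaps, 19.0% of gaps under 1 kb and a bin rho of 0.32. Merging gave a width of 289 bp and a gap of 5416 bp. Single replicates gave gaps of 2656 to 4898 bp, 23.8% to 33.9% of gaps under 1 kb and 67 to 157 runs. Bins of 500 kb gave a rho of 0.59, and gaps under 500 bp and under 2 kb gave 107 and 243 runs. Fewer peaks widen gaps by construction, and the other causes were not tested.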

Other observations

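The replicate lists held X peaks that the whole-series list lacks. Of the 1275 replicate 1 X peaks without a match in replicate 2, 377 had no overlap with a whole-series peak, and of the 500 such replicate 2 peaks, 98 had none. Of the matched X peaks, 1 of 1012 in replicate 1 and 1 of 1083 in replicate 2 was missing from it. The same counts are not given for II to V, so they do not set X apart. The 327 whole-series X peaks found in neither replicate were spread over the whole chromosome, with 11 to 27 in each full bin of 1 Mb. In the arms lay 53.2% of them (interval 47.6% to 58.7%), within the 47.4% to 56.1% of II to V.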
